A study of Mus musculus with 6 samples.

Results

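The genes described here are 10 members of the endothelial BMP pathway, read in cells isolated as bone endothelial cells (BECs). They include the co-receptor Eng (endoglin), the receptors Acvrl1 (ALK1) and Bmpr2, and the ligand Bmp4. The others are the signal carriers Smad1 and Smad5, the inhibitory SMADs Smad6 and Smad7, and the response genes Id1 and Id3. All 10 were taken by name from a table of 37991 genes and had enough counts to be tested. Of the 10, Eng was the only one whose female and male libraries did not overlap, where 14.5% of all tested genes did not. Its level was 2.36-fold higher in females, and it did not pass the adjusted threshold of the main test. Acvrl1, the receptor that endoglin assists, lay between 45.6 and 50.6 CPM, counts scaled to the size of the library, in all 6 libraries.

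BMP ligands bind a complex of type I and type II receptor kinases at the cell surface, and the type I kinase phosphorylates SMAD1 and SMAD5, which enter the nucleus with SMAD4 and switch on genes such as Id1, Id3, Smad6 and Smad7. In endothelial cells the type I receptor ALK1 binds circulating BMP9 and BMP10 with the help of endoglin and the type II receptor BMPR2, and this branch is known for keeping vessels from forming direct connections between arteries and veins. Loss of one copy of the human ENG or ACVRL1 gene causes hereditary haemorrhagic telangiectasia, and loss of one copy of BMPR2 predisposes to pulmonary arterial hypertension.

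The study asked how BECs of the sexes differ. The table holds RNA sequencing of cells sorted as BECs from the tibia of c57/Bl6 mice aged 12 weeks, with 3 female and 3 male libraries. According to the sample labels, cells were sorted by endomucin, a surface glycoprotein of capillary and venous endothelium, straight into lysis buffer. No allele or treatment was listed for either group, so the groups differ by sex alone as far as the labels go. The labels do not say that each library came from a different mouse, so p-values measure the spread between these libraries.

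Total counts lay between 47678806 and 58325745 per library, so that 3 counts correspond to 0.0477 to 0.0639 CPM on the TMM-normalised scale used for every level here, a floor for counting error only. The lowest count of any of the 10 genes was 145. Xist and 4 genes of the Y chromosome did not overlap between the sexes and separated the libraries as labelled. The Y genes also had some counts in females. The highest such level was 3.42 CPM, in female replicate 1, for a gene at 13.8 to 15.6 CPM in males. Each of the 22 endothelial markers had counts, yet together they held only 0.0245% to 0.0613% of a library's counts, against 2.10% to 4.51% for 16 neutrophil markers, 1.31% to 2.84% for 9 erythroid markers, 0.248% to 0.420% for 10 macrophage markers and 0.134% to 0.333% for 14 stromal markers. Markers of B cells (8 genes, 0.282% to 0.352%), of megakaryocytes (7 genes, 0.0038% to 0.0213%) and of isolation stress (9 genes, 0.0202% to 0.0454%) made up the rest of the lists. The endothelial share was lower in males (0.031% ± 0.00568, SD, n = 3) than in females (0.0523% ± 0.0127, n = 3), the neutrophil share was higher in males (3.91% ± 0.539) than in females (2.21% ± 0.0935), and in each case the libraries did not overlap (exact two-sided permutation p = 0.1, the smallest that 3 against 3 allows). The erythroid and stress shares were also higher, and the macrophage share lower, in every male library, while the B cell, stromal and megakaryocyte shares overlapped. In bulk RNA, fewer cells of a type and less RNA per cell cannot be told apart, and several of the 10 genes are also made by cells other than endothelium. With neutrophil and erythroid markers far above endothelial ones, a level here is that of the whole library and not of endothelial cells alone.

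Across all genes, the quasi-likelihood test of edgeR, adjusted by Benjamini-Hochberg, called 0.0411% of 19480 tested genes at an adjusted p under 0.05, and none of the 10. At an unadjusted p under 0.05 it called 9.79% of all genes and 1 of the 10, Eng. DESeq2's Wald test called 2.08% of the genes to which it gave an adjusted p, and again 1 of the 10, Eng. Among tested genes, 14.5% had no overlap between female and male libraries, as did 1 of the 10. By fitted difference, 7 of the 10 were lower in males and 3 higher, with a median log2 fold change of -0.08, beside -0.00 over all tested genes.

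**Figure D1:**
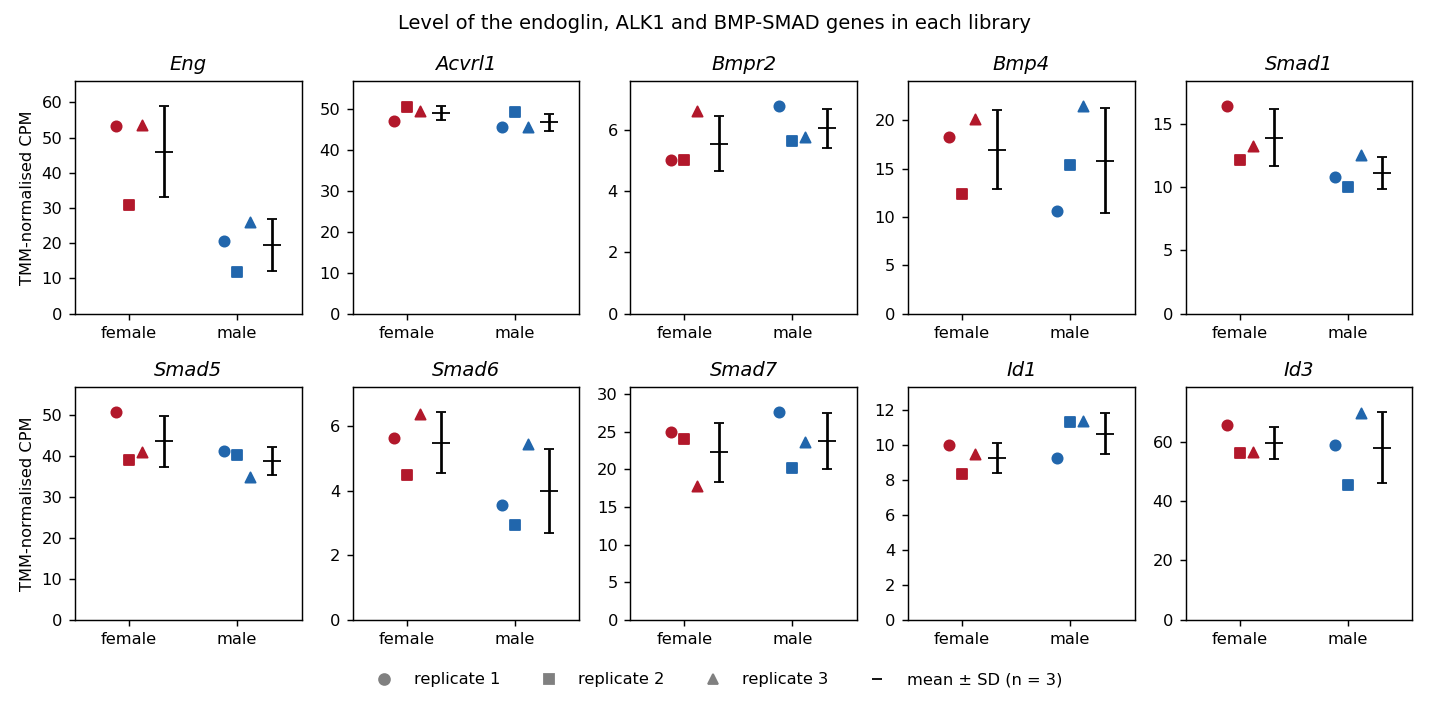
Each panel plots 1 gene, with its level in TMM-normalised CPM on a linear axis from 0, female libraries in red, male libraries in blue, and the mean ± SD (n = 3) beside them. Only Eng shows female and male points with no overlap, and the 6 points of Acvrl1 lie between 45.6 and 50.6 CPM.

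Eng (ENSMUSG00000026814, GRCm39 chr2:32535543-32574661, plus strand) encodes endoglin, a membrane glycoprotein of endothelial cells that holds BMP9 and BMP10 for ALK1. Its level was 53.3, 31.0 and 53.7 CPM in female replicates 1, 2 and 3 and 20.7, 11.7 and 26.1 CPM in male replicates 1, 2 and 3. Female replicates 1 and 3 stood highest and almost equal, male replicate 2 stood lowest, and the lowest female library lay above the highest male library. Female libraries averaged 46.0 ± 13.0 CPM and male libraries 19.5 ± 7.28 CPM (SD, n = 3 each), for a male over female log2 fold change of -1.24 (SE 0.303, 95% interval -1.93 to -0.55). In edgeR's quasi-likelihood test this gave an unadjusted p of 0.00295 and an adjusted p of 0.23, while DESeq2's adjusted p was 9.49e-04. Leaving out 1 library at a time put it between -1.50 and -0.97, with an adjusted p between 0.0875 and 0.565 in edgeR. Male replicate 2, lowest in Eng, also had the lowest endothelial marker share (0.0245%) and the highest neutrophil (4.51%) and stress (0.0454%) marker shares, and without it the log2 fold change of Eng was -0.97 (edgeR adjusted p = 0.509). The coefficient of variation over the 6 libraries was 52.8%, where counting alone gives 2.82%. Of all tested genes, 95.6% had a smaller spread of log2 CPM over the 6 libraries. The gene Fpgs, on the opposite strand, overlaps Eng and lay between 7.33 and 12.1 CPM. Whether the counting used strand is not given in the sources used here, so the reads of the overlap may be shared.

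The study's oligos for quantitative PCR of Eng are shown because they mark where on the transcript endoglin was measured outside this table. In capitals, 5′ to 3′, they read:
Eng-F: CCTCGATAGCAGCACTGGAT
Eng-R: CTGGCAAGCACAAGAATGGT
Matched to GENCODE M39, Eng-F lies in coding exon 4 of 15 (GRCm39 chr2:32561466-32561485) and Eng-R, on the opposite strand, in coding exon 5 (chr2:32562240-32562259). They frame an amplicon of 84 bases that crosses 1 intron and is present in 34 of the 39 annotated Eng transcripts and in 0 transcripts of other genes. A RefSeq promoter window of 300 bases (GRCm38.p6, 250 before to 50 after a start) was found for 7 of the 10 genes. No entry was matched for Acvrl1, Id1 and Smad7. In these windows 2 motifs of SMAD proteins were searched on both strands. GTCTAGAC is a palindrome bound by SMAD complexes, and GGCGCC is a GC-rich sequence bound by BMP-activated SMADs. GTCTAGAC occurs in 70 of 32851 windows of all genes (0.213%) and in 1 of the 9 windows of the 7 genes, that of Smad6. GGCGCC occurs in 3898 of all windows (11.9%) and in 3 of these 9, which belong to Bmpr2 and Smad5. The 250 bases before the start of Eng, the gene with the widest spread of the 10, are shown as the window of the member on which the comparison turns, with neither motif in them (chr2:32646345-32646594, plus strand):
Eng promoter: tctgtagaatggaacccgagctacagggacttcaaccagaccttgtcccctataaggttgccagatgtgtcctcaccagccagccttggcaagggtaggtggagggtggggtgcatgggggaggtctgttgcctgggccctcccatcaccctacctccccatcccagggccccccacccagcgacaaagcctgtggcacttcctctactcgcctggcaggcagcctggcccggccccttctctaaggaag
That these letters are absent says nothing about SMAD binding elsewhere.

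Acvrl1 (ENSMUSG00000000530, GRCm39 chr15:101025996-101043217, plus strand) encodes ALK1, the type I receptor kinase of the branch. Its level was 47.2, 50.6 and 49.5 CPM in female replicates 1, 2 and 3 and 45.6, 49.3 and 45.8 CPM in male replicates 1, 2 and 3. All 6 libraries lay close together and the sexes overlapped. Means were 49.1 ± 1.74 CPM in females and 46.9 ± 2.07 CPM in males (SD, n = 3 each), a log2 fold change of -0.07 (SE 0.105, 95% interval -0.30 to 0.17; edgeR adjusted p = 0.878). The highest library was 1.11-fold above the lowest, against 4.58-fold for Eng, and only 1.13% of tested genes had a smaller spread of log2 CPM. Library to library variation was 4.36%, of which counting alone gives 2.01%. The ratio of Acvrl1 to Eng within a library was far from constant: 0.885, 1.63 and 0.922 in female replicates 1, 2 and 3 and 2.2, 4.21 and 1.75 in male replicates 1, 2 and 3. This ratio, chosen after the values were seen and given without a test, was higher in every male library. With Acvrl1 so even, the ratio largely restates the level of Eng.

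Bmpr2 (ENSMUSG00000067336, GRCm39 chr1:59802544-59918173, plus strand) encodes the type II receptor kinase that phosphorylates the type I receptor. Its level was 5.03, 5.03 and 6.60 CPM in female replicates 1, 2 and 3 and 6.78, 5.62 and 5.76 CPM in male replicates 1, 2 and 3. Male replicate 1 was highest and female replicates 1 and 2 lowest, with overlap between the sexes. The fitted log2 fold change was 0.13 (SE 0.214, 95% interval -0.35 to 0.60; edgeR adjusted p = 0.888). Per kilobase of transcript it was the lowest of the 10 genes, at 0.449 CPM per kb. Its window is shown because it holds GGCGCC, in capitals, beginning 105 bases before the start (GRCm38.p6 chr1:59764029-59764278, plus strand):
Bmpr2 promoter: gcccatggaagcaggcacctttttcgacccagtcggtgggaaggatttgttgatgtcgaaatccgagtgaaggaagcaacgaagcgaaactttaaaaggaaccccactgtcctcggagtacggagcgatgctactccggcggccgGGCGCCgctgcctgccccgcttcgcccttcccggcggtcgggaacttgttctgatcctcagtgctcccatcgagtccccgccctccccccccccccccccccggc
For both receptors the male and female libraries overlapped.

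Bmp4 (ENSMUSG00000021835, GRCm39 chr14:46620250-46636745, minus strand) encodes a secreted ligand that signals through type I receptors other than ALK1. Its level was 18.3, 12.4 and 20.2 CPM in female replicates 1, 2 and 3 and 10.6, 15.4 and 21.5 CPM in male replicates 1, 2 and 3. The highest and the lowest library were both male, so the sexes overlapped entirely. Means were 17.0 ± 4.06 CPM in females and 15.8 ± 5.47 CPM in males, a log2 fold change of -0.10 (SE 0.26, 95% interval -0.68 to 0.47; edgeR adjusted p = 0.932). Its sign depended on single libraries, being 0.12 without male replicate 1 and 0.04 without female replicate 3.

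Smad1 (ENSMUSG00000031681, GRCm39 chr8:80065023-80126168, minus strand) and Smad5 (ENSMUSG00000021540, GRCm39 chr13:56850797-56890190, plus strand) encode the SMADs that BMP type I receptors phosphorylate. Smad1 was at 16.4, 12.1 and 13.2 CPM in female replicates 1, 2 and 3 and at 10.8, 10 and 12.5 CPM in male replicates 1, 2 and 3. Female replicate 1 stood highest, male replicates 1 and 2 lowest, and the sexes overlapped through female replicate 2. Smad5 was at 50.6, 39.0 and 40.8 CPM in the female and 41.2, 40.1 and 34.8 CPM in the male replicates 1, 2 and 3. Female replicate 1 was again highest, and the other 5 libraries overlapped. Log2 fold changes were -0.32 for Smad1 (SE 0.175, 95% interval -0.71 to 0.07; edgeR adjusted p = 0.592) and -0.17 for Smad5 (SE 0.134, 95% interval -0.47 to 0.13; edgeR adjusted p = 0.732). Within a library, the Smad5 to Smad1 ratio of CPM ran from 3.08 to 3.22 in females and from 2.78 to 4 in males, so the male range enclosed the female one.

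Smad6 (ENSMUSG00000036867, GRCm39 chr9:63860341-63929793, minus strand) encodes an inhibitory SMAD that acts mainly on BMP signalling and is itself a BMP target. Its level was 5.63, 4.48 and 6.37 CPM in female replicates 1, 2 and 3 and 3.57, 2.94 and 5.46 CPM in male replicates 1, 2 and 3. Female replicate 3 stood highest and male replicate 2 lowest, and male replicate 3 lay above female replicate 2, so the sexes overlapped. After Eng this was the member with the largest fitted difference, a log2 fold change of -0.46 (SE 0.28, 95% interval -1.08 to 0.16; edgeR adjusted p = 0.629), between -0.76 and -0.28 with a library left out. The window of Smad6 is shown because GTCTAGAC, in capitals, straddles its start, from 4 bases before to 4 after (GRCm38.p6 chr9:64022056-64022309, minus strand, 254 bases printed 5′ to 3′ along the gene):
Smad6 promoter: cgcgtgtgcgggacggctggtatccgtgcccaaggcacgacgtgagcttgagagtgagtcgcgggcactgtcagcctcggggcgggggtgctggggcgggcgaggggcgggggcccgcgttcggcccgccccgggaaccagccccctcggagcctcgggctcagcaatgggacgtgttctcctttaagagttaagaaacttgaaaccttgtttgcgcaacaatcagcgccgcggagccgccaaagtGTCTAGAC
A match is a run of letters and not a measured binding site.

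Smad7 (ENSMUSG00000025880) encodes the inhibitory SMAD that acts on both BMP and TGFβ receptors. Its level was 25.0, 24.0 and 17.8 CPM in female replicates 1, 2 and 3 and 27.6, 20.2 and 23.6 CPM in male replicates 1, 2 and 3. Female replicate 3, the highest library for Smad6, was the lowest for Smad7. The log2 fold change was 0.09 (SE 0.171, 95% interval -0.29 to 0.47; edgeR adjusted p = 0.893), and it turned to -0.04 without female replicate 3 and to -0.03 without male replicate 1. The Smad7 to Smad6 ratio of CPM ran from 2.80 to 5.36 in females and from 4.33 to 7.73 in males, with overlap.

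Id1 (ENSMUSG00000042745, GRCm39 chr2:152566218-152579544, plus strand) and Id3 (ENSMUSG00000007872, GRCm39 chr4:135870808-135873066, plus strand) encode helix-loop-helix proteins without a DNA-binding domain, which hold other helix-loop-helix factors off DNA and are early targets of phosphorylated SMAD1 and SMAD5. Id1 was at 9.99, 8.32 and 9.50 CPM in female replicates 1, 2 and 3 and at 9.28, 11.3 and 11.4 CPM in male replicates 1, 2 and 3. Male replicates 2 and 3 were highest, and male replicate 1 lay among the females. Id3 was at 65.7, 56.2 and 56.4 CPM in the female and 58.8, 45.5 and 69.5 CPM in the male replicates 1, 2 and 3. Its highest and lowest libraries were both male. Log2 fold changes were 0.20 for Id1 (SE 0.172, 95% interval -0.18 to 0.58; edgeR adjusted p = 0.752) and -0.04 for Id3 (SE 0.156, 95% interval -0.38 to 0.31; edgeR adjusted p = 0.961). The sign for Id3 turned with 1 library, to 0.11 without male replicate 2 and 0.05 without female replicate 1. The interval for Eng lies wholly below those of Acvrl1, Bmpr2, Smad5, Smad7, Id1 and Id3, as the plot of fitted differences shows. It overlaps those of Bmp4, Smad1 and Smad6, and the difference between genes was not tested.

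**Figure D2:**
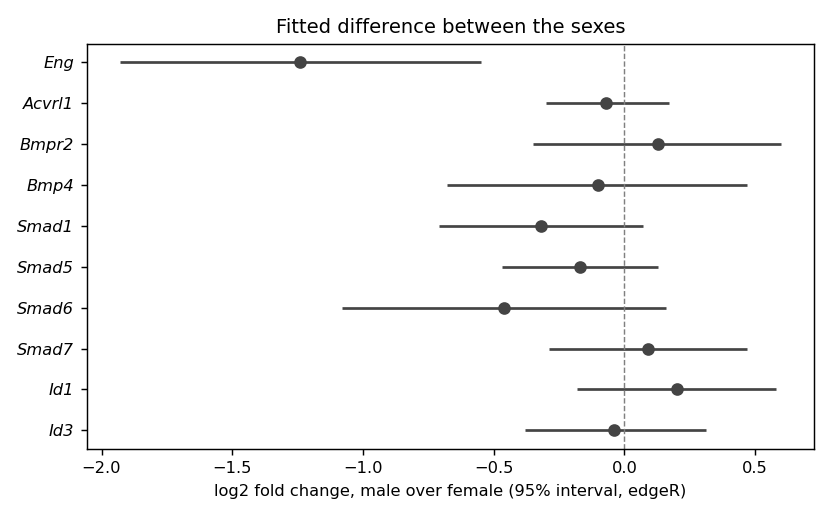
Fitted log2 fold change of each gene, male over female, as points with 95% intervals from edgeR, in the order of the roles above. The interval of Eng, -1.93 to -0.55, is the only one of the 10 that does not cross 0. Such an interval goes with an unadjusted p under 0.05 in edgeR, which 9.79% of all tested genes had.

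Levels of different genes were compared per kilobase of the canonical transcript. Id3 stood first at 45.9 CPM per kb, followed by Acvrl1 at 22.2, Eng at 9.39, Id1 at 8.63, Bmp4 and Smad5 at 5.88 each, Smad7 at 5.12, Smad1 at 4.01, Smad6 at 1.55 and Bmpr2 at 0.449 CPM per kb. Ranges over the 6 libraries did not overlap between Id3 and Acvrl1, Acvrl1 and Eng, Smad1 and Smad6, or Smad6 and Bmpr2. From Eng down to Smad1 each neighbour in this order overlapped the next. Eng ran from 3.36 to 15.4 CPM per kb, the widest of the 10 as a ratio of highest to lowest library (4.58-fold), while Acvrl1 ran from 21.1 to 23.4 and Id3 from 35.6 to 54.4 CPM per kb.

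The profile of Eng over the 6 libraries was set beside that of every tested gene with a mean of at least 5 CPM (12256 genes), by the root mean square difference of log2 CPM after centring each gene on its own mean. Closest was Cdh5, the VE-cadherin of endothelial junctions, at 0.0979, followed by Tek, the TIE2 receptor, at 0.132, Cavin1, a coat protein of caveolae, at 0.136, and the basement membrane genes Nid2 at 0.151 and Col4a2 at 0.154. This is a description over 6 libraries that share depth and composition. Cdh5 was at 31.2, 15.8 and 32.6 CPM in the female and 12.6, 6.50 and 16.1 CPM in the male replicates 1, 2 and 3, with female replicate 2 just below male replicate 3. In each library Eng was close to the same multiple of Cdh5, at 1.71, 1.96 and 1.65 in the female and 1.64, 1.80 and 1.62 in the male replicates 1, 2 and 3. The sexes overlapped in this ratio (1.77 ± 0.168 in females and 1.69 ± 0.101 in males, SD, n = 3), which varied 1.21-fold over all libraries. Since Cdh5 is the gene nearest to Eng of all 12256, the evenness of this ratio restates that nearness and is given without a test. Of the 12256 genes, 2 had a ratio to Cdh5 that varied less. The endothelial markers themselves ranged in this measure from 1.19-fold for Tek to 4.65-fold for Pecam1 and 4.82-fold for Erg, with 1.71-fold for Emcn, the gene of the sorting marker. Beside the lower Eng level in males, all 22 endothelial markers had a negative fitted log2 fold change, with a median of -1.02, of which edgeR called 15 at an unadjusted p under 0.05 (9.79% of all tested genes), 0 at an adjusted p under 0.05 (0.0411%), and DESeq2 8 (2.08%). Of the endothelial markers, 19 of 22 had a mean high enough to be ranked, 13 of them among the first 100, with a median rank of 52 and a range of 1 to 3569. Of the stromal markers, 12 of 14 were ranked, 2 of them among the first 100, with a median rank of 409.5 and a range of 33 to 9104. Those 2 were Adipoq, the adiponectin gene, 33rd at 0.254 and so just ahead of Emcn, 39th at 0.263, and Alpl, 81st at 0.322. Every male library lay below every female one for Adipoq (log2 fold change -1.69, SE 0.371; edgeR adjusted p = 0.183). All 10 macrophage markers were likewise lower in males by fitted value, with a median log2 fold change of -0.43. In edgeR 10 had an unadjusted p under 0.05 (9.79% of all tested genes) and 0 an adjusted p under 0.05. DESeq2 called 3 (2.08%), and 8 did not overlap between the sexes (14.5%). The part of endothelial, stromal or macrophage content in the Eng difference was not tested.

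Acvrl1 did not follow Cdh5. Its ratio to Cdh5 was 1.51, 3.21 and 1.52 in the female and 3.61, 7.58 and 2.84 in the male replicates 1, 2 and 3. This 5.01-fold span is close to that of Pecam1 and Erg. Cdh5 itself varied 5.01-fold and Acvrl1 1.11-fold, so the span restates that of Cdh5, as it would for any even gene. Ranked by likeness to Eng, where a gene of small spread cannot come near, Acvrl1 came 5512th of 12256 at 0.765, beside Smad1 636th at 0.577, Id3 1822nd at 0.672, Bmp4 2487th at 0.695, Smad5 3085th at 0.711, Bmpr2 7210th at 0.804, Smad7 7722nd at 0.816 and Id1 8742nd at 0.846. The mean of Smad6 over the libraries was under 5 CPM, so it was not ranked. Even so, Smad6 put the 6 libraries in the same order as Cdh5, and Eng did so except that female replicate 2 and male replicate 3 changed places. The Smad6 to Eng ratio, chosen after the values were seen, was lower in every female library (0.106 to 0.145) than in any male library (0.172 to 0.251).

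**Figure D3:**
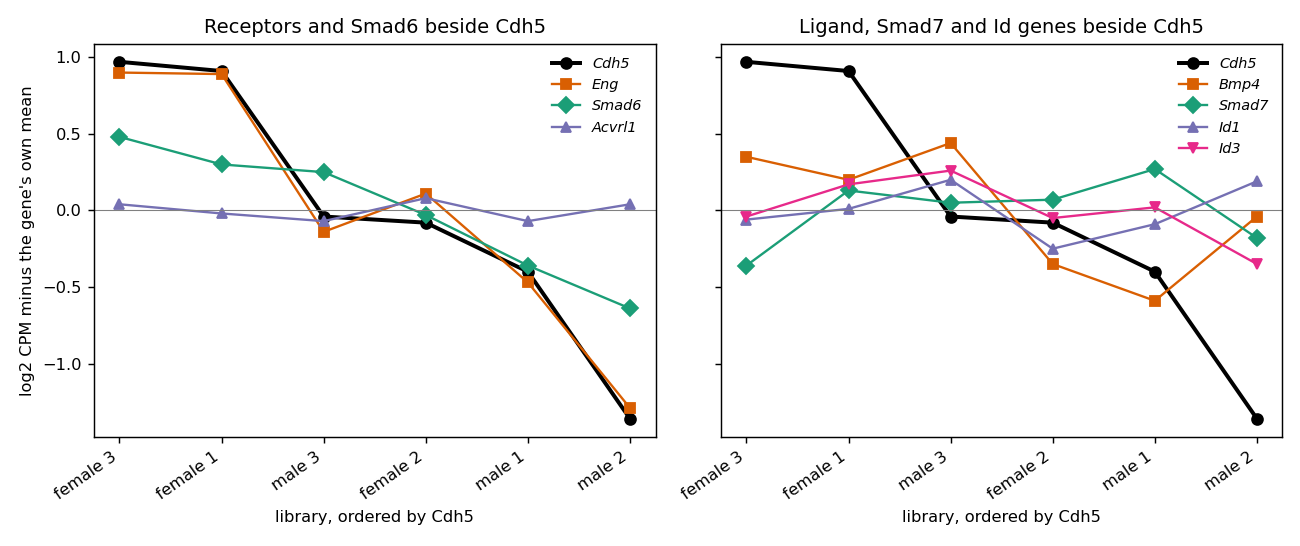
Log2 CPM of each gene minus its own mean, with the libraries on the horizontal axis ordered by Cdh5 from highest to lowest. Eng tracks Cdh5, Smad6 keeps its order over a narrower range, Acvrl1 stays within 0.08 of its mean, and Bmp4, Smad7, Id1 and Id3 take other orders.

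Id1 was treated in the same way. Its nearest genes were Bbip1, a subunit of the BBSome of cilia, at 0.0354, the general transcription factor gene Gtf2a2 at 0.0455, the signal peptidase gene Sec11c at 0.0466, Stmn1, which encodes a microtubule destabiliser, at 0.0521, and Ttc19, a mitochondrial complex III factor, at 0.0542. Most of these are made in cells of every kind. Acvrl1 ranked 2263rd and Id3 5945th of 12256 in likeness to Id1. The measure depends on the size of a gene's spread as well as on its order of libraries, so a gene as even as Id1 or Acvrl1 is placed far from Eng whatever its order.

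Relative to the summed CPM of the 22 endothelial markers, 6 of the 10 genes did not overlap between the sexes, 5 higher in males (Bmpr2, Smad1, Smad7, Id1 and Id3) and 1 lower (Eng). Among all tested genes 41.2% did not overlap by this ratio, nearly all of them higher in males (40.8%), and the sum itself was 397 to 588 CPM in females and 245 to 372 CPM in males. Acvrl1, the most even of the 10 genes, overlapped by this ratio, at 0.083 to 0.128 in females and 0.123 to 0.201 in males (exact two-sided permutation p = 0.2). A ratio lower in every male library was seen for 0.38% of tested genes. For Eng it was 0.0938, 0.0781 and 0.0913 in the female and 0.0648, 0.0478 and 0.0702 in the male replicates 1, 2 and 3, with means of 0.0877 ± 0.00841 and 0.0609 ± 0.0117 (SD, n = 3; exact two-sided permutation p = 0.1, the smallest possible). Pecam1 and Stab2 made up 35.2% to 53.6% of the sum, and the separation of Eng depended on the denominator. Over the sum without Pecam1 and Vwf, Eng still did not overlap, at 0.105 to 0.12 in females and 0.0739 to 0.096 in males, while over Cdh5 alone it overlapped. For Id1 the ratio was 0.0176, 0.0210 and 0.0162 in the female and 0.0290, 0.0461 and 0.0306 in the male replicates 1, 2 and 3, 1.90-fold higher in males on average. Id3 gave 0.115, 0.142 and 0.0959 in females and a nearly even 0.184, 0.186 and 0.187 in males. Smad6 overlapped, with means of 0.0107 in females and 0.0126 in males.

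A list of 52 other BMP pathway genes was read from the same fit, and 39 of them were tested. edgeR called none at an adjusted p under 0.05 and 7 at an unadjusted p under 0.05, all lower in males, where 4.76% of all tested genes were lower in males at that p. DESeq2 called 1. In all, 25 had a negative and 14 a positive fitted log2 fold change, with a median of -0.10, and 4 of the 39 did not overlap between the sexes, against the 14.5% of all tested genes. The ligands of ALK1, Gdf2 (BMP9) and Bmp10, had 0 counts in every library, which allows a level of up to 0.0639 CPM in the shallowest one, and so did Gdf7, Chrdl2 and Sostdc1.

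Among the ligands, 6 of 12 were tested. Bmp6, a ligand known from sinusoidal endothelium of the liver as a regulator of iron, had the highest mean CPM of them, with 35.2, 15.0 and 26.8 CPM in the female and 15.7, 10.8 and 17.8 CPM in the male replicates 1, 2 and 3. Female replicate 2 lay below male replicates 1 and 3. The log2 fold change was -0.80 (SE 0.292; edgeR unadjusted p = 0.0214, adjusted p = 0.402). Of the co-receptors, Tgfbr3 (betaglycan, related to endoglin) was at 29.9, 14.0 and 26.5 CPM in the female and 14.1, 6.62 and 18.6 CPM in the male replicates 1, 2 and 3, so that female replicate 2 fell among the males. Its log2 fold change was -0.84 (SE 0.385; edgeR adjusted p = 0.522). The Tgfbr3 to Eng ratio of CPM, also chosen after the values were seen, was 0.453 to 0.561 in females and 0.565 to 0.713 in males. Of the receptors, 4 of 5 were tested and 0 passed either threshold, with Acvr2a, a type II receptor, at 8.05 ± 2.04 CPM in females and 5.98 ± 0.0764 CPM in males (SD, n = 3; edgeR adjusted p = 0.574).

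Smad4, the partner that activated SMADs share, was at 48.8, 51.0 and 50.6 CPM in the female and 57.2, 53.0 and 53.1 CPM in the male replicates 1, 2 and 3. Every male library lay above every female one, by little (log2 fold change 0.12, SE 0.104; edgeR adjusted p = 0.757). The 5 SMAD regulators lay between -0.20 (Ski, a corepressor) and 0.14 (Ppm1a, a phosphatase of SMADs, at 73.9 ± 6.11 CPM in females and 81.4 ± 3.45 CPM in males, edgeR adjusted p = 0.73). Of 9 further targets 8 were tested and 0 passed either threshold, and Id2, the highest by CPM, was at 78.7 ± 12.9 CPM in females and 78.1 ± 13.2 CPM in males (SD, n = 3).

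Of 15 secreted antagonists, which bind BMP ligands or related factors outside the cell, 11 were tested, 8 with a negative fitted log2 fold change, and 5 had an unadjusted p under 0.05 and were lower in males (4.76% of all tested genes), Twsg1, Grem1, Fstl1 and Chrdl1 among them. Fstl1, a secreted glycoprotein of mesenchymal cells, was at 183, 91.3 and 175 CPM in the female and 79.6, 48.5 and 111 CPM in the male replicates 1, 2 and 3, with female replicate 2 below male replicate 3. Its log2 fold change was -0.91 (SE 0.331; edgeR adjusted p = 0.412), and DESeq2's adjusted p was 0.0498. Chrdl1, a chordin-like BMP antagonist, was at 64.7, 32 and 71.5 CPM in the female and 28.1, 13.7 and 42.9 CPM in the male replicates 1, 2 and 3, again with female replicate 2 among the males (log2 fold change -0.99, SE 0.417; edgeR adjusted p = 0.491). Twsg1, named after its values were seen, did not overlap. It was at 29.0 ± 1.42 CPM in females and 20.6 ± 2.98 CPM in males (log2 fold change -0.49; edgeR adjusted p = 0.265). Beside these genes, stromal markers had a median log2 fold change of -0.35 with 12 of 14 negative, of which edgeR called 4 at an unadjusted p under 0.05 (9.79% of all tested genes) and 0 at an adjusted p under 0.05, and DESeq2 2 (2.08%), while their summed share overlapped between the sexes, and their part in the antagonists was not tested.

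**Figure D4:**
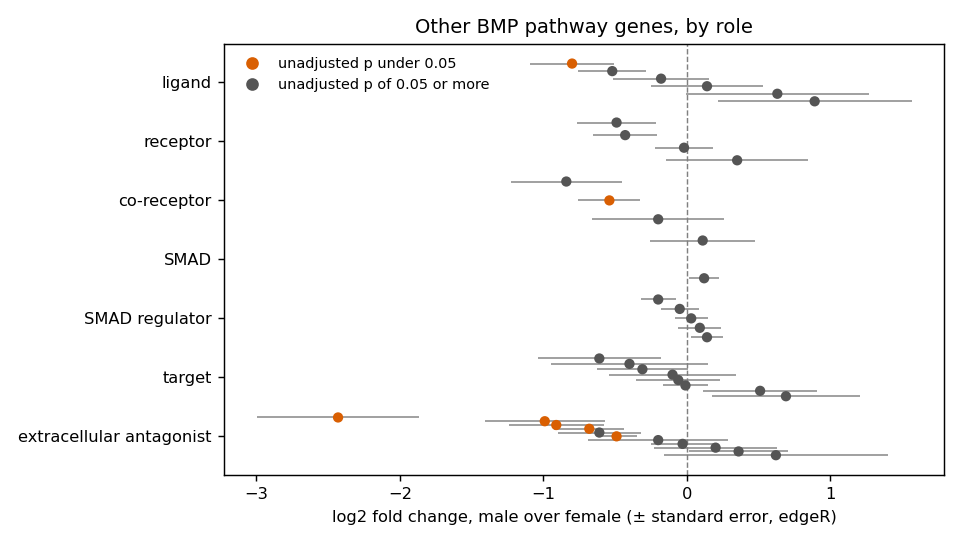
Fitted log2 fold change, male over female, of the 39 tested genes of the wider pathway, grouped by role, with lines for ± 1 standard error from edgeR and orange for an unadjusted p under 0.05. The 7 orange points all lie below 0, and 5 of them are extracellular antagonists.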

How the data were processed

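Cells isolated as BECs from 3 female and 3 male samples gave 1 library each. The table that the authors deposited holds raw counts, whole numbers of reads per gene, with every replicate in a column of its own. Paper and sample labels differ on how the reads were made and aligned: the paper names GRCm39, STAR and a total RNA kit, while the submitters' processing notes list mm9, NCBIM37, TopHat2 2.0.11 and featureCounts, and the labels give polyadenylated RNA and a directional kit. Which of these made the table was not tested. It affects which reads reach a gene, above all where genes overlap. On isolation, the paper's methods describe crushed tibiae and femurs and beads coated with an endomucin antibody, while the labels give a sort of tibia cells. The paper also states that the 3 samples of each set with the best RNA quality went on to libraries. No column lacked a sample.

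Identifiers were matched to GENCODE M39 (GRCm39) for symbols, positions and canonical transcript length, with 31073 of 37991 found, holding 96.2% of counts. Ahsp and Vpreb1 had no matching row. The 10 genes, the pathway list and the marker lists were chosen with earlier results of these data known.

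Males were compared with females in edgeR 4.0.16 (R 4.3.3) with TMM normalization, filterByExpr on the sexes, glmQLFit with robust estimation, and p-values adjusted by Benjamini-Hochberg over the 19480 genes left. A standard error is |log2 fold change| over the root of the F statistic. Levels are TMM-normalised CPM. Single ratios and shares were compared by an exact two-sided permutation test over libraries. For the spread of log2 CPM a pseudocount of 0.1 CPM was added. Named beside the 10 genes were pathway genes under an adjusted p of 0.05 in edgeR, in edgeR blocked on replicate number or in DESeq2, the pathway gene with the highest mean CPM of each role, the markers Cdh5, Pecam1 and Emcn, and the 5 genes most like Eng and Id1. Grem1, Twsg1, Ski, Erg, Stab2, Adipoq, Alpl and Fpgs, and genes listed at 0, fall outside that rule and were named after their values were seen. The values of 1 pathway gene are not reported here.

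The alternatives scaled by DESeq2's size factors or by total counts, or used no low-count filter, at least 10 counts in every library, genes over 1% of a library's counts left out, DESeq2 1.42.0, the replicate block, other endothelial denominators, or 1 library fewer. The fits were tested on simulated data with known changes.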

Additional observations from a re-analysis of the deposited data

How the results depend on the processing

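The number of all genes at an adjusted p under 0.05 in edgeR, 8, was 14 with total counts alone, 98 with no low-count filter, 359 in DESeq2's Wald test and 5 to 96 with a library left out (5 without female replicate 2, 96 without male replicate 3). Of the 10 BMP-SMAD genes, 0 passed in edgeR, 1 in DESeq2 (Eng) and 0 with any library left out. Of the other pathway genes, 0 passed in edgeR, 1 in DESeq2 (Fstl1) and 0 to 1 with a library left out (Grem1, without male replicate 3). The same replicate number in females and males was tried as a block. Sample titles also carry a code, and its number is the same in females and males only at replicate 3. Deviations of same-numbered libraries correlated at 0.194, 0.040 and 0.298, and male replicate 2 correlated best with female replicate 1 (0.131), so the numbers were not taken as a pairing. With this block 428 genes passed (2.2% of those tested), with 1 of the 10 (Eng, log2 fold change -1.27, adjusted p = 2.96e-04) and 4 other pathway genes (Chrdl1, adjusted p = 9.12e-04; Fstl1, 0.00194; Tgfbr3, 0.0107; Bmp6, 0.0277). The cause of these shifts was not tested. With libraries left out, log2 fold changes crossed 0 for Bmp4 (-0.39 to 0.12), Smad7 (-0.04 to 0.20), Id3 (-0.19 to 0.11) and Id2 (-0.16 to 0.13, and 0.00 without the 7 genes over 1% of counts). All other alternatives that were run kept the sign of the log2 fold change of the 10 genes and of Bmp6, Tgfbr3, Chrdl1, Fstl1, Ppm1a, Smad4 and Acvr2a, and were not run for the markers or the genes like Eng and Id1. Relative to endothelial markers, 6 of the 10 did not overlap, 5 against Cdh5 alone, 7 without Pecam1 and Vwf, and 6 to 9 with a library left out, where fewer libraries separate more easily (9 without female replicate 2). The share over all tested genes, 41.2%, was taken for the first of these settings only, so the other counts have no share to be read against. The difference in endothelial share, -0.0213 percentage points, lay between -0.0286 and -0.0168. With 3 libraries a sex, an interval such as that of Bmp4 leaves changes of either sign within its bounds.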
